A study of Drosophila melanogaster with 3 samples.

Results

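A short stretch near the downstream end of the terminal repeat of the retroelement Penelope gave rise to 245 of the 2670 distinct small RNA sequences that matched the element in ovaries of 3 Drosophila melanogaster strains. These 245 sequences were chosen by their listed position alone. A sequence was taken when the lowest start listed for it, on either strand, lay between positions 451 and 570 of the element, counted from 1 on the plus strand. Together they carried 872 of 6395 reads. Of the 970 sequences of A1a, 127 were members, as were 164 of the 1800 of A2d and 13 of the 474 of A2h. Since position chose the members, their number and the place where they lie are a description and were not tested.

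The samples were ovaries of the strains A1a, A2d and A2h, with 1 library each and therefore no replicate libraries. All flies were 3 to 5 days old and had been kept at 25 degrees, and no Penelope-free strain was among the samples used here. RNA of 23 to 29 nt was cut from a gel before adapters were ligated, and the strains had been picked because a Northern blot had shown Penelope piRNAs in them. The labels name no genotype beyond the strain names, so differences between libraries cannot be told apart from differences between strains. With each sequence counted once, the lists held 1777 reads for A1a, 3870 for A2d and 748 for A2h.

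PIWI-interacting RNAs (piRNAs) are small RNAs bound by PIWI proteins that silence transposable elements in the germ line. In the ping-pong cycle, a piRNA guides the cleavage of a complementary transcript, and the new 5′ end becomes that of a piRNA from the other strand. Partners made in this way overlap by 10 nt at their 5′ ends, and a guide that begins with uridine pairs with a partner that carries adenosine at base 10. Phased or primary piRNAs are cut from a long precursor and mostly begin with uridine without needing a partner. Penelope was found in Drosophila virilis, in which hybrid dysgenesis mobilises it. Its protein has a reverse transcriptase domain and a GIY-YIG endonuclease domain, and its copies often carry direct terminal repeats.

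The plus strand of the left repeat copy, rebuilt from the deposited reads and their listed mismatches, is shown because every member lies on it. It runs from position 460 to position 600 of the element, 5′ to 3′, with T standing for U in RNA. The capitals mark T486, beside which the right copy has 1 extra T, and T580, at which nearly all covering reads differed from the element sequence the authors used. The 9 positions between 451 and this start were covered by no read.
Left copy: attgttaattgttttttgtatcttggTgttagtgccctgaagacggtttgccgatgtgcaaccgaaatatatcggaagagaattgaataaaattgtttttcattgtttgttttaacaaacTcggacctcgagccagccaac

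The 5 most abundant antisense members were the same 5 sequences in A1a and in A2d. They are shown because they led the antisense members. Their 5′ ends lay at 515, 517 and 519, and their 3′ ends at 490, 491 and 493. Base 1 and base 10 are in capitals, and the positions run from the lower to the higher coordinate of the left copy.
Antisense 491 to 515: CatcggcaaAccgtcttcagggcac
Antisense 491 to 519: TgcacatcgGcaaaccgtcttcagggcac
Antisense 493 to 519: TgcacatcgGcaaaccgtcttcagggc
Antisense 490 to 515: CatcggcaaAccgtcttcagggcact
Antisense 491 to 517: CacatcggcAaaccgtcttcagggcac

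The leading sense members are shown in the same way. The first 4 were among the 5 most abundant of both A1a and A2d, and the last was among those of A2d.
Sense 567 to 592: TgttttaacAaacacggacctcgagc
Sense 565 to 592: TttgttttaAcaaacacggacctcgagc
Sense 566 to 592: TtgttttaaCaaacacggacctcgagc
Sense 565 to 590: TttgttttaAcaaacacggacctcga
Sense 24 nt, ending at 592: TtttaacaaAcacggacctcgagc

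The stretch supplied very different shares of the 3 libraries. Members made up 23.4% of the reads of A1a (416 of 1777, 95% interval 21.5 to 25.5), 11.4% of those of A2d (443 of 3870, 10.5 to 12.5) and 1.74% of those of A2h (13 of 748, 0.929 to 2.95). The 3 intervals did not overlap, which is no test between strains, since each had 1 library. All intervals are exact (Clopper-Pearson) binomial ones, cover counting error only, and treat PCR reads without molecular identifiers as independent, which they are not. On the antisense strand alone, members held 26.7% of the reads of A1a, 10.5% of those of A2d and 0.427% of those of A2h (3 of 703). On the sense strand they held 19.0% in A1a, 12.9% in A2d and 22.2% in A2h, where the last rests on 10 of only 45 sense reads (11.2 to 37.1).

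Most members were antisense in A1a and A2d and sense in A2h. Antisense reads were 65.1% of member reads in A1a (60.4 to 69.7), against 54.7% of the reads of all other sequences of the library (52.0 to 57.3). They were 55.5% of member reads in A2d (50.8 to 60.2), against 61.3% among its other sequences (59.7 to 62.9). In A2h they were 3 of 13 member reads (23.1%, 5.04 to 53.8), against 95.2% of the reads of other sequences (93.4 to 96.7). The A2d value depended on the window, whose edge passes through a cluster of sense reads. With 10 nt taken off each edge, antisense reads were 84.0% of member reads in A2d, against 58.8% of the others, and 93.0% in A1a, against 50.3%. In A2h they were then 3 of 7 member reads, against 94.5% of the others. No test between libraries or between position classes was made, because each strain had 1 library.

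The first base of the antisense members departed from that of the antisense reads elsewhere on the element. Only 42.1% of antisense member reads began with T in A1a (36.1 to 48.2), against 84.7% of other antisense reads (81.9 to 87.2). In A2d the share was 35.0% among members (29.0 to 41.3), against 85.1% among the others (83.5 to 86.6). Cytidine began 51.7% of antisense member reads in A1a and 43.9% in A2d, against 6.18% and 5.66% of other antisense reads of the same libraries. Its lead over T by reads depended on the sequence from 491 to 515, with 42 and 37 reads. Without this most abundant antisense member C was first in 42.8% of antisense member reads in A1a and 34.0% in A2d, both below the share of T. By sequence C was first in 46.9% of antisense members of A1a, against 8.49% of other antisense sequences, and in 28.6% in A2d, against 8.68%. In A2d a further 18.7% of antisense member reads began with A. The antisense reads of the upstream stretch of the same repeat began with T in 90.2% of reads in A1a and 84.7% in A2d. T took up 16.3% of all other bases of antisense members in A1a and 18.4% in A2d, against 39.1% and 40.4% in other antisense reads. These shares weigh each sequence by its reads and do not measure the strand itself. Whether base composition bears on the first base was not tested.

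Counted by sequence rather than by read, the low share of T stayed low in A2d, at 44.0%, and in A1a, at 42.0%. Without the most abundant member it was 49.8% of the antisense member reads of A1a. Base 10 of antisense members was A in 49.8% of reads in A1a (43.7 to 55.9) and 52.0% in A2d (45.6 to 58.4), against 21.6% and 23.3% of other antisense reads. In A1a this was not particular to the members. Antisense reads at the end of the left repeat, just downstream, had it in 70.3% in A1a (58.5 to 80.3) and 31.6% in A2d. In the upstream stretch the share was 13.9% in A1a. A took up 30.5% and 26.1% of the remaining bases of these members, against 19.6% and 18.8% in other antisense reads. Both bases were rarely found together: no antisense member read of A1a had T first and A at base 10, which allows up to 1.11%, and 2 of 246 had both in A2d, against 18.8% and 20.8% of other antisense reads.

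Sense members showed the opposite first base. T began 93.8% of sense member reads in A1a (88.5 to 97.1), 90.4% in A2d (85.4 to 94.1) and 10 of the 10 of A2h. Among other sense reads the shares were 52.7% in A1a, 50.5% in A2d and 45.7% in A2h. Base 10 was A in 71.0% of sense member reads of A1a (62.9 to 78.3) and 62.4% of those of A2d (55.3 to 69.2), against 54.0% and 51.0% of other sense reads. This rested on the sense reads near the downstream edge: with 10 nt taken off each edge the shares were 15.0% and 15.2%, against 58.4% and 53.6% of other sense reads. By sequence the share was 56.5% in A1a, against 48.7% of other sense sequences, and 41.1% in A2d, against 51.1%. A made up 27.5% and 27.3% of the remaining bases of sense members in A1a and A2d. T first and A at base 10 occurred together in 64.8% of sense member reads in A1a and 58.4% in A2d, against 30.2% and 28.1% of other sense reads.

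The antisense members fell mainly into a block of 5′ ends from position 513 to 520, chosen after the data were seen as the run of positions around the strongest end with at least 4 reads each over the 3 libraries. This block held 202 of 271 antisense member reads in A1a (74.5%, 68.9 to 79.6), 200 of 246 in A2d (81.3%, 75.9 to 86.0) and 2 of the 3 of A2h. It consisted of 43 sequences in A1a and 55 in A2d. The strongest 5′ end was position 515, with 79 reads in A1a and 74 in A2d, followed by position 519 with 74 and 52 reads. Position 515 is read as C on the antisense strand and position 519 as T. Position 517 had 20 reads in each of A1a and A2d, and position 516 had 9 and 21.

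The 5′ ends of this block lay over 8 positions. Its 3′ ends lay between 484 and 496 in A1a and between 486 and 496 in A2d. Position 491 was the 3′ end of 98 antisense member reads in A1a (36.2%, 30.4 to 42.2), 82 in A2d (33.3%, 27.5 to 39.6) and 2 in A2h. Those reads had 5 different 5′ ends in A1a and 7 in A2d. Position 490 followed with 38 reads in A1a and 58 in A2d, each from 6 different 5′ ends, and position 493 with 33 and 37 reads. The strongest 3 of the 3′ ends held 62.4% of antisense member reads in A1a and 72.0% in A2d, against 9.01% and 19.8% of other antisense reads for their own strongest 3. The other sequences are spread over a far longer element, so these shares differ in part by construction. The strongest 3 of the 5′ ends held 64.9% of antisense member reads in A1a and 59.8% in A2d. By this measure the 3′ ends were more concentrated than the 5′ ends in A2d only.

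The most abundant antisense member, from 491 to 515, was read 42 times in A1a, 37 times in A2d and 1 time in A2h, and it was 1 of 2 members found in all 3 libraries. For the sequence from 491 to 519 the counts were 32 in A1a, 12 in A2d and 0 in A2h. For that from 493 to 519 they were 25 in A1a and 18 in A2d. The sequence from 490 to 515 had 20 and 22 reads in these libraries, and the sequence from 491 to 517 had 10 and 11. These 5 sequences together were 47.6% of antisense member reads in A1a and 40.7% in A2d. A1a had more reads than A2d of the sequences from 491 to 515, 491 to 519 and 493 to 519. A2d, the deeper library, had more of those from 490 to 515 and 491 to 517.

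A second antisense group had its 5′ ends from 484 to 500, taken as all antisense members ending at or before position 500. It made up 54 of 271 antisense member reads in A1a (19.9%, 15.3 to 25.2) and 18 of 246 in A2d (7.32%, 4.39 to 11.3), and none in A2h. Its strongest 5′ end was position 498, with 23 reads in A1a and 4 in A2d, followed by position 493 with 12 and 4. Cytidine was first in 68.5% of its reads in A1a and 55.6% in A2d. The group reached 3′ ends between 460 and 476 in A1a and between 460 and 474 in A2d.

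The sense members were concentrated further downstream. A block of 5′ ends from 564 to 570, found by the same rule, held 125 of 145 sense member reads in A1a (86.2%, 79.5 to 91.4), 150 of 197 in A2d (76.1%, 69.6 to 81.9) and 6 of the 10 of A2h. Position 567 had most reads in A1a, with 46, against 40 in A2d. Position 565 had most in A2d, with 51, against 32 in A1a, and it had 3 in A2h. Position 566 had 20 reads in A1a and 21 in A2d. T was first in 95.2% of the reads of the block in A1a and 99.3% in A2d, on a stretch of the element that is itself rich in T. A stood at base 10 in 80.0% and 77.3% of them.

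These sense reads also shared their 3′ ends. Position 592 was the 3′ end of 85 of 145 sense member reads in A1a (58.6%, 50.2 to 66.7) and 76 of 197 in A2d (38.6%, 31.8 to 45.8). It was reached from 6 different 5′ ends in A1a and 5 in A2d. Position 590 came next, with 13 reads in A1a and 29 in A2d, and position 596 had 7 and 13. In A2h position 587 led with 4 reads, against 5 in A1a and 2 in A2d. Most abundant was the sequence from 567 to 592, with 40 reads of A1a and 24 of A2d, and the sequence from 565 to 592 had 18 and 25. The sequence from 566 to 592 had 14 and 12 reads, and the sequence from 565 to 590 had 8 and 20. The sequence of 24 nt that ended at 592 was read 3 times in A1a and 8 times in A2d. None of these 5 was listed in A2h.

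The edge of the window passed through this sense cluster. Sequences starting at 570, the last position inside, had 5, 13 and 2 reads in A1a, A2d and A2h, all sense. Sequences starting at 571, just outside, had 10, 4 and 1 reads, again all sense. At the other edge the lowest start inside was 460 in A1a and A2d, with 2 reads each, and 483 in A2h with 1 read. The nearest start below the window was 414 in A1a, 411 in A2d and 397 in A2h, so no cluster was divided there.

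Few members had a partner on the other strand at the 10 nt overlap of the ping-pong cycle. A partner was listed for 12.2% of antisense member reads in A1a (33 of 271, 8.53 to 16.7), 6.10% in A2d (15 of 246, 3.45 to 9.86) and 0 of the 3 of A2h. Among other antisense reads the shares were 21.5% in A1a, 30.1% in A2d and 0.286% in A2h. Sense members had a partner in 5.52% of reads in A1a (8 of 145, 2.41 to 10.6), 9.14% in A2d (18 of 197, 5.51 to 14.1) and 0 of the 10 of A2h, against 20.7%, 23.1% and 2.86% of other sense reads. Without the sense reads near the downstream edge, in the window with 10 nt off each side, the sense shares were 40.0% in A1a and 39.1% in A2d. At the end of the left repeat, 16.0% of sense reads had a partner in A1a (8 of 50) and 10.5% in A2d (9 of 86). The antisense shares there were 58.1% and 32.9%. Averaged over the other overlaps from 1 to 20 nt, a partner was listed for 6.58% of antisense member reads in A1a and 8.11% in A2d. The same average for sense member reads was 5.52% in A1a and 10.8% in A2d, so the share at 10 nt stood above its average on the antisense strand of A1a only.

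The number of read pairs gave the same order of values. With at least 1 member in the pair, 82 read pairs overlapped by 10 nt in A1a, where other overlaps averaged 42.7, and 41 in A2d, where they averaged 51.4. No pair was found in A2h. An overlap of 19 nt had the most pairs in both libraries, 150 in A1a and 146 in A2d, and 10 nt ranked 4 in A1a and 12 in A2d among the 20 overlaps.

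No partner was listed for either strong block, and the weaker groups differed among themselves. None of the 202 antisense reads of A1a or 200 of A2d with a 5′ end from 513 to 520 had a partner at 10 nt, which allows up to 1.49% and 1.50%. A partner would need a sense 5′ end from 504 to 511, and no sense read of any of the 3 libraries began between 496 and 521. None of the 125 sense reads of A1a or 150 of A2d with a 5′ end from 564 to 570 had a partner either, which allows up to 2.40% and 2%. Their partners would begin antisense between 573 and 579, and no antisense read of any library began between 567 and 588. In the antisense group from 484 to 500, by contrast, 31 of 54 reads in A1a (57.4%, 43.2 to 70.8) and 10 of 18 in A2d (55.6%, 30.8 to 78.5) had a partner. The antisense members with 5′ ends from 504 to 512 had partners for 0 of 3 reads in A1a and 1 of 7 in A2d, and those from 522 to 591 for 2 of 12 and 4 of 21. Of the sense members with 5′ ends from 470 to 495, 8 of 20 reads in A1a (40.0%) and 16 of 41 in A2d (39.0%) had one, as did 2 of 6 sense reads of A2d with 5′ ends from 522 to 562. Other overlaps are not given by group, so these shares do not single out 10 nt. Over all antisense member reads the highest partner shares were 15.5% at 19 nt in A1a and 19.1% at 20 nt in A2d. Over all sense member reads they were 11.7% at 19 nt in A1a and 32.0% at 2 nt in A2d. Each was above the share at 10 nt.

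The pairs with the largest products of read counts are shown because they hold reads of the weaker groups. Capitals mark the first 10 nt, which pair with each other. The leading pair joined an antisense sequence of 5 reads in A1a and 2 in A2d to a sense sequence of 2 and 1.
Antisense 467 to 490: TAACACCAAGatacaaaaaacaat
Sense 481 to 505: CTTGGTGTTAgtgccctgaagacgg
Another pair of A1a joined an antisense sequence of 6 reads to a sense sequence seen 1 time that carried a mismatch.
Antisense 471 to 498: CAGGGCACTAacaccaagatacaaaaaa
Sense 489 to 513: TAGTGCCCTGaagacgctttgccga
In the leading pair the antisense partner begins with T, and the sense partner carries A at base 10. In A2d a pair of 2 and 2 reads joined the antisense member from 565 to 590 to a sense sequence starting at 581, outside the window.
Antisense 565 to 590: TCGAGGTCCGtgtttgttaaaacaaa
Sense 581 to 606: CGGACCTCGAgccagccaacaaataa
The partner share of antisense members in A1a rested largely on sense sequences with a mismatch: with sequences free of mismatches other than at position 580 it was 3.77% (9 of 239).

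Antisense members were also examined for reads laid head to tail, the arrangement left by phased cutting. An antisense 5′ end lay directly after the 3′ end of 54.6% of antisense member reads in A1a and 77.2% in A2d, against means of 17.3% and 11.9% at distances of 2 to 20 nt. In A1a a distance of 4 nt had a higher share, 65.7%. These shares rested on few following reads, since only 7 antisense reads of A1a and 2 of A2d began at 490, directly after the main 3′ end at 491, and 1 read in each began at 489. Among sense members the share was 0% in A1a and 1.52% in A2d. The base after the 3′ end was T for 44.6% of antisense member reads in A1a and 40.2% in A2d, and for 7.59% and 10.7% of sense member reads. Most of these antisense reads ended at position 491: 98 of 121 in A1a and 82 of 99 in A2d.

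The repeat is present at both ends of the element, and most members could not be assigned to either copy. The rebuilt copies were the same over 141 nt from position 460 to 600, except that the right copy, from 3240 to 3381, had 1 extra T beside T486. Reads listed in both copies were 351 of the 416 of A1a, 402 of the 443 of A2d and 12 of the 13 of A2h. The remaining 65 reads of A1a, 41 of A2d and 1 of A2h were listed in the left copy only. No read was listed in the right copy only in any library, although a read across the extra T would be placed there.

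The groups that had partners were largely the ones that could be placed. In the antisense group from 484 to 500, 50 of 54 reads in A1a and 15 of 18 in A2d were listed in the left copy alone, as were 14 of 20 and 23 of 41 sense reads with 5′ ends from 470 to 495. No read of the antisense block from 513 to 520 or of the sense block from 564 to 570 was listed at a single place. Among members listed in both copies, the share of antisense reads with a partner was 0.909% in A1a and 1.75% in A2d.

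Members were slightly longer than other sequences in A1a and A2d and shorter in A2h. Mean length was 26.5 ± 1.59 nt among member reads of A1a (SD over reads, n = 416) and 25.7 ± 1.53 nt among its other reads. It was 26.3 ± 1.63 nt in A2d, against 25.9 ± 1.52 nt among its other reads. In A2h it was 23.7 ± 1.70 nt, against 26.04 ± 1.61 nt, but its members were mostly sense and its other reads mostly antisense. Sense reads alone averaged 23.7 nt among members of A2h (n = 10) and 25.1 nt among the others (n = 35). Sense reads averaged 24.4 nt in the upstream stretch of the repeat (n = 12) and 24.0 nt at its end (n = 5). The differences in A1a and A2d were smaller than the spread over reads. Sense members peaked at 26 nt, with 39.3% of reads in A1a and 33.5% in A2d, and antisense members at 25 nt, with 23.6% and 24.0%. Reads of 29 nt were 11.5% of member reads in A1a (8.63 to 15.0), against 4.34% of other reads, and 7.00% in A2d, against 5.54%. The antisense sequence from 491 to 519 supplied 32 of the 48 member reads of 29 nt in A1a.

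Nearly every read over position 580 differed from the authors' element. In A1a T580A was carried by all 129 member reads that covered it, 125 of them sense and 4 antisense. In A2d 152 sense and 3 antisense reads among the 156 carried it, and the remaining 1 carried T580G. In A2h 6 of 7 sense reads carried T580A, and the other carried T580G. The substitution gives the authors' base first, the position from 1 on the plus strand, and the base read on that strand.

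Counted by read, mismatches elsewhere were few in A1a and A2d and frequent in A2h, where every member had 1 read. Counted by sequence, the shares of A1a and A2d were higher, as given below with the alternatives. A mismatch other than at position 580 was carried by 11.3% of member reads in A1a (8.42 to 14.7), 11.5% in A2d (8.69 to 14.9) and 10 of the 13 of A2h (76.9%, 46.2 to 94.96). Among other reads, mismatches stood in 14.7%, 13.9% and 9.52%. On the sense strand of A2h such a mismatch was carried by 8 of 10 member reads (44.4 to 97.5), against 10 of 35 other sense reads (14.6 to 46.3), with 4 of 12 in the upstream stretch and 2 of 5 at the end of the repeat. At single positions, 5 of 111 covering reads of A1a and 8 of 122 of A2d carried G568T, 5 of 69 of A1a carried C481A, and 5 of 232 of A2d carried T507C. C503A had 3 reads in each of A1a and A2d, and A490G and G491A had 3 each in A2d. Mismatches at the final base stood in 2.88% of member reads of A1a, in 1.58% of those of A2d and in 3 of 13 of A2h, against 0.324%, 0.436% and 3.55% of inner bases.

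The kinds of mismatch among members also differed between the libraries. They were not counted for the other sequences, so a trait of this stretch cannot be told from one of the whole library. Some reads carried more than 1 mismatch, and the intervals treat these as independent. With position 580 left out and each change read on the strand of the small RNA itself, A-to-G changes were 1 of the 49 mismatches of A1a, 16 of the 59 of A2d (27.1%, 16.4 to 40.3) and 8 of the 13 of A2h (61.5%, 31.6 to 86.1). On the plus strand the A-to-G counts of A2d split into 6 A-to-G changes in sense reads and 10 T-to-C changes in antisense reads, and those of A2h into 7 and 1. G-to-T changes, on the strand of the small RNA, were 25 of the 49 of A1a, 16 of the 59 of A2d and 2 of the 13 of A2h.

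All 13 members of A2h had 1 read each, and 10 of them were 23 nt long (76.9%, 46.2 to 94.96), against 5.03% of its other reads. On the sense strand 8 of 10 member reads had this length (44.4 to 97.5), against 9 of 35 other sense reads (12.5 to 43.3), with 4 of 12 in the upstream stretch and 3 of 5 at the end of the repeat. The members with an A-to-G mismatch are represented below by 4 sequences, with each mismatched base in capitals. Both sequences from 531 carried A551G. Both from the sense block carried A574G, which was found in 3 of the 7 reads of A2h that covered the position.
Sense 531 to 553: tcggaagagaattgaataaaGtt
Sense 531 to 554: tcggaGgagaattgaataaaGttg
Sense 565 to 587: tttgttttaGcaaacAcggacct
Sense 570 to 592: tttaGcaaacAcggacctcgagc
The 13 reads were too few to read an order of ends or first bases from them.

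A1a and A2d had many members in common. They shared 57 members, which were 44.9% of the members of A1a and 34.8% of those of A2d, and 78.4% and 70.9% of their member reads. Other sequences were shared to 38.7% and 19.9%, with 57.2% and 47.1% of reads. A2h shared 2 of its 13 members with each of the other libraries, the antisense sequence from 491 to 515 and the sense sequence from 565 to 587 that carries no mismatch other than T580A. The second was read 2 times in A1a and 1 time in each of the other libraries. Of the members of A2h, 15.4% were thus shared with each library. Of its other sequences, 24.5% were shared with A1a and 34.9% with A2d. Of the 245 members, 188 were found in 1 library only, 70 of them in A1a, 107 in A2d and 11 in A2h. The same count was not made for the other sequences, so it is not read as a trait of this stretch. Sequences with 1 read were 61.4% of members in A1a, 65.9% in A2d and 100% in A2h, against 76.5%, 72.4% and 78.1% of other sequences, and at this depth absence from a list does not show that a sequence was missing from the ovary.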

How the data were processed

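Small RNA libraries from ovaries of 3 strains were analysed, 1 library per strain. Per the file headers, the deposited tables list sequences matching Penelope with raw read counts, strand, start, end, length and mismatches. Aligner, trimming and the authors' Penelope sequence: not given in the sources used here. Flags, lengths and mismatched bases were checked against the sequences on every line, and starts were read as counted from 0 and are printed from 1. Empty lines, 3 in A1a and 2 in A2d, were not analysed here.

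A sequence listed at several places was counted once with its count, at its lowest start. The left copy was rebuilt from reads and listed mismatches, with 0 contradictory bases. A partner is a sequence of the other strand in the same library whose 5′ end overlaps by 10 nt at any listed place. Shares carry exact 95% intervals on reads, and a count of 0 was taken to allow 3 counts. Depth was 1777, 3870 and 748 reads in A1a, A2d and A2h. The named members are the 5 with most reads per strand and library and those in all libraries, with the 3 strongest ends per strand and library, the leading pairs, positions with 3 or more mismatched reads, and the edges of the window. The members and lists were chosen with earlier results of these data known. The blocks of 5′ ends and the A-to-G sequences printed from A2h were chosen after their values were seen. No test between libraries was made, since no strain had replicate libraries. Alternatives were counting each sequence once, a minimum of 2 reads, leaving out the most abundant member, a narrower window, other lengths, other overlaps, sequences at several places and sequences without mismatches. Scripts ran in Python 3.11.15 with pandas 2.3.3, NumPy 2.4.6 and SciPy 1.17.1, and were tested on simulated data.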

Additional observations from a re-analysis of the deposited data

How the results depend on the processing

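Of 250 alternative values, 183 stayed within the interval of the reported value, or within 1 SD for mean length, and 67 moved further, 28 in A1a, 32 in A2d and 7 in A2h. With each sequence counted once, members were 13.1% of A1a and 9.11% of A2d. T was then first in 44.0% of antisense and 78.1% of sense members of A2d. Base 10 was A in 56.5% of sense and 43.2% of antisense members of A1a, and in 41.1% and 34.1% in A2d. A partner at 10 nt was then listed for 17.3% of antisense and 15.2% of sense members of A1a, and 12.1% and 20.5% in A2d. The strongest 5′ and 3′ ends held 14.8% each in A1a, and 16.5% and 15.4% in A2d. A mismatch other than at position 580 stood in 34.6% of members in A1a and 27.4% in A2d.

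With sequences of 2 or more reads, members were 32.1% of A1a, 12.99% of A2d and 0% of A2h, where no member was left. In A1a, partners then stood at 3.17% of antisense and 1.71% of sense reads, the strongest 3′ end at 42.5% and mismatches at 1.78%. In A2d, first T stood at 96.0% of sense reads, A at base 10 at 71.1% of sense and 59.7% of antisense reads, partners at 2.15% and 1.34%, the strongest 5′ and 3′ ends at 37.1% and 40.9%, and mismatches at 3.58%. The partner shares rested largely on sequences with 1 read.

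With 10 nt taken off each edge of the window, which drops the sense block, members were 16.0% of A1a and 7.42% of A2d, and 93.0% and 84.0% of their reads were antisense. First T was at 85.0% and 60.9% of sense reads in A1a and A2d, and A at base 10 was at 15.0% and 15.2%, while partners were listed for 40.0% and 39.1%. Sequences listed at more than 1 place put members at 55.2% of the reads so listed for A1a, 29.4% for A2d and 13.3% for A2h. The antisense partner share was then 0.909% in A1a and 1.75% in A2d, and the sense one 0% and 1.15%. In A1a the strongest 5′ and 3′ ends held 35.9% and 44.5%.

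Without the most abundant member, first T was at 49.8% of antisense reads in A1a and its strongest 3′ end at 24.5%. C, an alternative chosen after seeing the data, was first in 42.8% there and 34.0% in A2d, and by sequence in 28.6% of antisense members of A2d. A at base 10 was at 40.6% of antisense reads in A1a and 43.5% in A2d. With no mismatch other than at position 580, the antisense partner share of A1a was 3.77%, members were 0.449% of A2h, and its 1 antisense member left put first T at 0% and base 10 A and both ends at 100%. Overlaps of 9 to 11 nt gave partners to 10.98% of antisense and 14.7% of sense reads in A2d.

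No paired analysis was possible because each strain had 1 library. Depth limits A2h most: its 13 member reads leave wide intervals, and a sequence that is not listed there is not shown to be absent.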
